A study of Mus musculus with 12 samples.

Results

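Semaphorins, plexins and neuropilins, best known for steering growing axons, were examined in ARG1+ and ARG1- microglia through 9 genes: the neuropilins Nrp1 and Nrp2, the plexins Plxna1, Plxna2, Plxnb2, Plxnc1 and Plxnd1, and the semaphorins Sema4b and Sema4d. These are the rows, 9 of the 55487 in the deposited table of counts, whose Ensembl identifiers carry these symbols in the GRCm38 annotation. The table comes from bulk RNA-seq of microglia sorted from the brain (BF/striatum) of YARG mice, in which a YFP reporter marks cells that use the Arg1 locus, at postnatal day 13. All cells came from the same reporter strain and were selected as CX3CR1-positive and CD206-negative, so the populations differ by label only in YFP, with ARG1+ cells positive and ARG1- cells negative for it. There were 6 libraries of each population, 3 from females and 3 from males, each made from the pooled tissue of several mice, and the libraries are named here by population, sex and the number in their label. The paper describes 3 litters per sex, with both populations sorted from the pooled tissue. The labels do not say which libraries came from the same litter, so pairing by litter is ignored here. P values set the difference between the populations against the spread between these libraries, which includes any spread between litters.

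Semaphorins are secreted or membrane-bound ligands. Plexins are their transmembrane receptors and signal through small GTPases to the actin cytoskeleton. Neuropilins have short cytoplasmic tails and act as co-receptors, with A-type plexins for class 3 semaphorins and with VEGF receptors for VEGF, and in macrophages Nrp1 is also known as a partner in TGF-beta signaling.

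Of the 8 genes that passed the filter on low counts, 3 rose in ARG1+ relative to ARG1- microglia (adjusted p under 0.05) and 0 fell. The 3 were Nrp2, a co-receptor, and the receptors Plxnc1 and Plxnd1. Plxnc1 and Plxnd1 passed the filter only through their counts in ARG1+ libraries, which favours a call in that direction, so the count of 3 is given as a description. The genes with the most RNA per length, Plxnb2, Sema4d and Nrp1, did not pass the test. Over all 16908 genes tested, 6.44% were called higher and 9.42% lower. Unless another tool is named, adjusted p values come from the quasi-likelihood test of edgeR, with sex as a second term and Benjamini-Hochberg adjustment across those 16908 genes. Levels are CPM, the gene's counts scaled to the normalized library size, and log2 changes are ARG1+ minus ARG1-. In sorted bulk samples, fewer cells that make a transcript and less transcript per cell cannot be told apart.

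The promoter tables of RefSeq (build GRCm38.p6) held 12 starts for 8 of the 9 genes, Plxna1 being the gene without an entry. The 250 bases before the start are shown for the 3 genes called higher, since the results turn on them. Capitals mark GAGGAA, the core that PU.1, the main transcription factor of the myeloid lineage, recognizes, and GGGCGG, the GC box, on either strand.
Nrp2, chr1:62703067-62703316, plus strand: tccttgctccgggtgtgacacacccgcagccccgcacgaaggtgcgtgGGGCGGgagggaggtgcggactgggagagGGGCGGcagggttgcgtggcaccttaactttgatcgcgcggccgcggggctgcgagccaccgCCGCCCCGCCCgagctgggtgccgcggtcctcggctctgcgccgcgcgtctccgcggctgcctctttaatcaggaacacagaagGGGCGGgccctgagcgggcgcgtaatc
Plxnc1, chr10:94944846-94945095, minus strand: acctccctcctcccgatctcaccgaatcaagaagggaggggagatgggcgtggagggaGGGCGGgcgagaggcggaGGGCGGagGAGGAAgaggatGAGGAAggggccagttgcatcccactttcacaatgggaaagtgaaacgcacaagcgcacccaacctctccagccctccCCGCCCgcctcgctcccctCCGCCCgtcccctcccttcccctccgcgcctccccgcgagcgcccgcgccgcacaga
Plxnd1, chr6:115995006-115995255, minus strand: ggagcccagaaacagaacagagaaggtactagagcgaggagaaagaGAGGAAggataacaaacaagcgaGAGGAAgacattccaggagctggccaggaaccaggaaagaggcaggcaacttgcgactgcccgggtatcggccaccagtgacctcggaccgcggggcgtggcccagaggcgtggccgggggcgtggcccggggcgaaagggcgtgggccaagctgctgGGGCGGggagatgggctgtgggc
The Plxnc1 and Plxnd1 windows each held 2 copies of GAGGAA and the Nrp2 window held 0. GGGCGG occurred 5 times in the Nrp2 window, where 2 of the copies overlap, 4 times in that of Plxnc1 and 1 time in that of Plxnd1. The E-box CACGTG occurred in 0 of these 3 windows. Among all 32851 windows of the same length, 23.3% held GAGGAA, 32.7% GGGCGG and 6.02% CACGTG on either strand. Among the 12 windows of the 9 genes, these motifs occurred in 5, 10 and 1. These are matches of letters and say nothing about binding.

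Library totals lay between 28356659 and 60625170 counts, so that 3 counts, taken as the level of an undetected gene, equalled 0.0511 to 0.102 CPM. Arg1 itself, the gene behind the sort, had 52 counts in ARG1+ female 15, 2 in ARG1+ female 8 and 0 in the other 10 libraries, so the populations are called here by their sort labels. Of the 16908 tested genes, 14742 to 15756 had a count in an ARG1- library and 15667 to 16637 in an ARG1+ library. Of 10 microglial identity genes, among them P2ry12 and Tmem119, 10 were tested, 7 were lower and 1 was higher in ARG1+ cells, and their summed level was 48507 to 64347 CPM in ARG1- and 38179 to 49033 CPM in ARG1+ libraries. Genes known for detained introns, whose level can follow RNA handling, summed to 2065 to 3823 CPM in ARG1- and 4649 to 6354 CPM in ARG1+ libraries, with 7 of 14 higher. Markers of other brain cells summed to 264 to 384 CPM (oligodendrocytes), 179 to 224 CPM (astrocytes) and 6.97 to 20.0 CPM (neurons) in ARG1- and to 171 to 265, 130 to 152 and 2.32 to 9.46 CPM in ARG1+ libraries, with 1 oligodendrocyte and 1 astrocyte marker lower. Monocyte markers summed to at most 14.6 CPM in any library (1 of 5 tested lower), and 2 of 11 immediate early genes tested were higher.

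Nrp2 was the called gene with the most counts. It encodes neuropilin 2, the co-receptor through which Sema3F and VEGF-C act, and lies at chr1:62703285-62818695 on the plus strand (ENSMUSG00000025969). In the 6 ARG1- libraries it ranged from 7.38 to 22.6 CPM (median 17.7). In the 6 ARG1+ libraries it ranged from 45.0 to 89.0 CPM (median 59.2). The populations did not overlap, and the lowest ARG1+ library (male 11) lay well above the highest ARG1- library (male 5). The ARG1- mean was 16.8 ± 5.64 CPM and the ARG1+ mean 62.8 ± 16.5 CPM (SD, n = 6 each), a ratio of 3.74. The fitted log2 change was 1.90 ± 0.27 (SE), with a 95% interval of 1.32 to 2.49 and an adjusted p of 0.00106. The increase was seen in both sexes, with means of 19.0 and 56.2 CPM in female and 14.6 and 69.3 CPM in male ARG1- and ARG1+ libraries. Nrp2 stayed past the threshold with each of the 12 libraries left out, with log2 changes of 1.75 to 2.06, and in all 11 other settings of the analysis.

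Nrp1 encodes neuropilin 1, a co-receptor for class 3 semaphorins and VEGF-A (chr8:128358604-128503363, plus strand, ENSMUSG00000025810). The gene ranged from 131 to 269 CPM (median 180) in ARG1- and from 184 to 371 CPM (median 283) in ARG1+ libraries. The ranges overlapped: ARG1+ male 11 lay below ARG1- females 1 and 13, and ARG1+ females 8 and 15 lay below ARG1- female 1. Means were 190 ± 51.7 and 286 ± 67.4 CPM (SD, n = 6 each), and the log2 change of 0.60 ± 0.20 (SE; 95% interval 0.17 to 1.02) missed the threshold at an adjusted p of 0.0573. That call turned on the setting. Nrp1 passed with DESeq2 size factors (adjusted p = 0.0441), when genes under 10 counts in any library were dropped (0.0183) and with DESeq2's Wald test (0.00778), and without ARG1- female 1 (0.0329) or ARG1+ male 11 (0.0301).

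**Figure D1:**
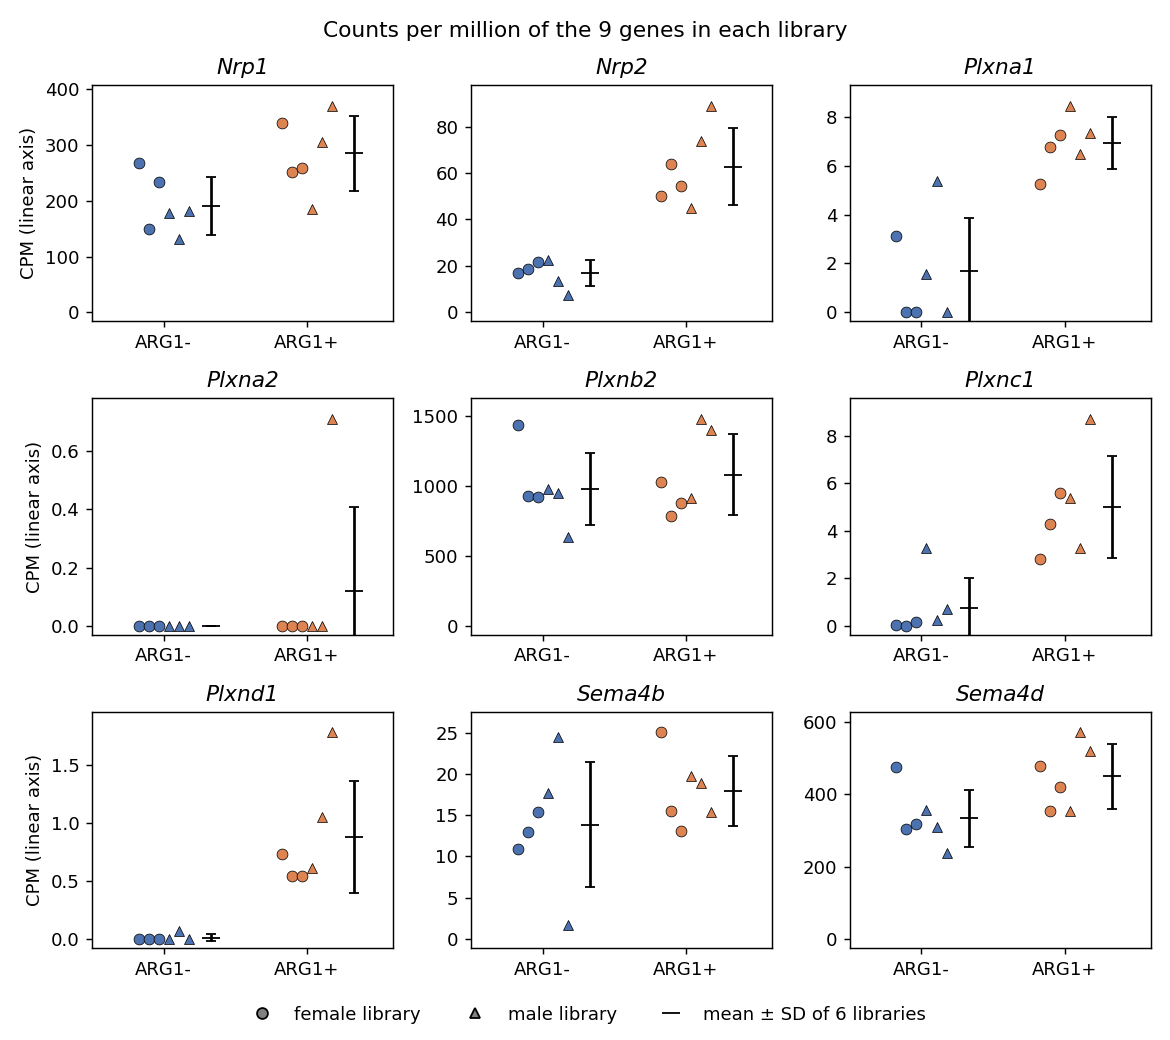
Level of each of the 9 genes in CPM on a linear axis, 1 point per library, with the mean and SD of the 6 libraries of each population in black (bars that would pass below 0 end at the axis edge). For Nrp2 and Plxnd1 all ARG1+ points lie above all ARG1- points, for Plxnc1 and Plxna1 1 or more ARG1- libraries reach the ARG1+ range, and for Plxna2 the single library with counts is ARG1+ male 16.

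Among the plexins, Plxnd1 and Plxnc1 were scarce and rose, and Plxnb2 was abundant and did not pass the test. Plxnd1 encodes a receptor known for binding Sema3E and for its role in vessel patterning (chr6:115954811-115995005, minus strand, ENSMUSG00000030123). In ARG1- microglia it had 2 counts in male 6 and 0 counts in the other 5 libraries. In ARG1+ microglia it had 23, 16 and 19 counts in females 7, 8 and 15 and 27, 50 and 60 counts in males 11, 12 and 16. Every ARG1+ library therefore lay above every ARG1- library, although at a level below 2 CPM. The mean in ARG1+ microglia was 0.876 ± 0.481 CPM (SD, n = 6). Summed over libraries, the ratio of counts relative to the normalized library sizes was 103, with a 95% interval of 28.1 to 855 that covers counting error only. The adjusted p was 0.00240, and the fitted log2 change of 6.26 ± 1.05 (SE) rests on 2 counts in the ARG1- arm. Plxnd1 remained called with each library left out, and lost the call in the 8 libraries numbered 1 to 12 (adjusted p = 0.0629). It could not be fitted when genes under 10 counts in any library were dropped.

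Plxnc1 encodes the receptor of Sema7A, known in myeloid cells also as the viral semaphorin receptor (chr10:94790866-94944835, minus strand, ENSMUSG00000074785). ARG1- females 1, 2 and 13 had 1, 0 and 8 counts, and ARG1- males 5, 6 and 14 had 123, 7 and 24. ARG1+ females 7, 8 and 15 had 88, 126 and 197 counts, and ARG1+ males 11, 12 and 16 had 236, 155 and 294. In CPM, ARG1- male 5 (3.25) lay above ARG1+ female 7 (2.79) and just below ARG1+ male 12 (3.26), and the other ARG1- libraries lay at 0.711 or lower. Means were 0.728 ± 1.26 and 5.01 ± 2.13 CPM (SD, n = 6 each), a ratio of 6.88. The fitted log2 change was 3.90 ± 1.07 (SE; 95% interval 1.57 to 6.23; adjusted p = 0.0280), which is larger than the ratio of means, and it fell to 2.78 (adjusted p = 0.0878) when sex was left out of the fit. Plxnc1 was called in 8 of 12 fits that left out a library. It missed the threshold without ARG1- female 1 (0.0572), ARG1- female 13 (0.0694), ARG1+ female 8 (0.0506) or ARG1+ male 16 (0.0615), and in the libraries numbered 1 to 12 (0.217). Like Plxnd1, it could not be fitted under the filter of 10 counts in every library.

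Plxnb2, a B-type plexin that binds class 4 semaphorins such as Sema4C, is carried by macrophages and microglia (chr15:89155549-89180788, minus strand, ENSMUSG00000036606). It ranged from 637 to 1440 CPM in ARG1- and from 789 to 1482 CPM in ARG1+ libraries, with medians of 943 and 972. The ranges overlapped almost entirely. The log2 change was 0.14 ± 0.20 (SE), with a 95% interval from -0.30 to 0.58 (adjusted p = 0.707), and it was -0.02 in the libraries numbered 1 to 12.

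Plxna1, the receptor that pairs with neuropilins and, in myeloid cells, with the TREM2 adaptor complex, varied more between ARG1- libraries, relative to its mean, than any other of the 8 genes tested except Plxnc1 and Plxnd1 (chr6:89316314-89362620, minus strand, ENSMUSG00000030084). ARG1- females 1, 2 and 13 had 104, 0 and 2 counts and ARG1- males 5, 6 and 14 had 60, 160 and 0. ARG1+ libraries were more even, with 166 to 372 counts. In CPM, ARG1- male 6 (5.35) reached above the lowest ARG1+ library, female 7 (5.26), and the other 5 ARG1- libraries lay at 3.12 or lower. The log2 change was 2.15 ± 1.17 (SE; 95% interval -0.40 to 4.70; adjusted p = 0.252). Plxna2, another A-type plexin, had 24 counts (0.711 CPM) in ARG1+ male 16 and 0 counts in the other 11 libraries (chr1:194618218-194816869, plus strand, ENSMUSG00000026640). With so few counts it was left out of the test.

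Both semaphorins are class 4 membrane proteins. Sema4d, which binds Plxnb1 and, on immune cells, CD72, had the higher level per length (chr13:51685529-51793747, minus strand, ENSMUSG00000021451). It ranged from 237 to 473 CPM (median 314) in ARG1- and from 353 to 571 CPM (median 448) in ARG1+ libraries. ARG1- female 1 lay within the ARG1+ range, as did ARG1- male 5 by a small margin. Means were 333 ± 78.8 and 449 ± 89.4 CPM (SD, n = 6 each). The log2 change of 0.43 ± 0.17 (SE; 95% interval 0.06 to 0.81) had an adjusted p of 0.112. It passed under the filter of 10 counts in every library (0.0396), with DESeq2 (0.0292) and without ARG1- female 1 (0.0278).

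Sema4b (chr7:80186841-80226527, plus strand, ENSMUSG00000030539) ranged from 1.75 CPM in ARG1- male 14 to 24.5 CPM in ARG1- male 6, and from 13.1 to 25.1 CPM in ARG1+ libraries. The ARG1- libraries thus spanned nearly the whole ARG1+ range and went below it. The log2 change was 0.37 (95% interval -0.58 to 1.33; adjusted p = 0.626).

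Set against length, as CPM per kilobase of summed exons (RPKM), the 9 genes kept nearly the same order in both populations. Plxnb2 was the highest, with 127 ± 33.5 RPKM where ARG1 was negative and 140 ± 37.7 where it was positive (SD, n = 6 each), the 274th of the 16908 genes by its level over all libraries. Sema4d followed at 43.3 ± 10.3 and 58.4 ± 11.6 RPKM and Nrp1 at 19.5 ± 5.28 and 29.2 ± 6.88, and the ranges of these 3 did not overlap within either population. Next came Sema4b (2.46 ± 1.34) and Nrp2 (1.42 ± 0.476) in ARG1- microglia, in 5 of 6 libraries in that order, with overlapping ranges. In ARG1+ microglia Nrp2 (5.30 ± 1.39) stood before Sema4b (3.18 ± 0.756), again in 5 of 6 libraries and with overlapping ranges. Plxna1 (0.186 and 0.765 RPKM) and Plxnc1 (0.0872 and 0.599) overlapped in both populations, and Plxnd1 (0.00153 and 0.120) and Plxna2 (0 and 0.00690) were lowest.

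Libraries were not alike across the genes. ARG1+ male 16 held the highest of 6 values for 5 of the 9 genes (Nrp1, Nrp2, Plxna2, Plxnc1 and Plxnd1), and ARG1- male 14 the lowest for 4 (Nrp2, Plxnb2, Sema4b and Sema4d). ARG1+ male 16 also had the most RNA of Mrc1, the gene of CD206, at 231 CPM against 100 to 160 CPM in the other 11 libraries. Without ARG1+ male 16, the log2 change of Nrp2 was 1.79 (adjusted p = 0.00372) and that of Plxnd1 6.15 (0.0115). Without ARG1- male 14, they were 1.75 (0.00116) and 6.04 (0.00594). Plxnc1 missed the threshold without ARG1+ male 16 and stayed called without ARG1- male 14 (edgeR's adjusted p = 0.0454). The libraries numbered 13 to 16, 1 of each group, were also set apart from those numbered 1 to 12. The log2 ratio of mean CPM was 1.70 in libraries 1 to 12 and 2.30 in libraries 13 to 16 for Nrp2, 0.57 and 0.60 for Nrp1, 2.16 and 4.08 for Plxnc1, -0.03 and 0.55 for Plxnb2, 0.26 and 0.73 for Sema4b, and 0.28 and 0.76 for Sema4d. Plxna1 differed most between them: its log2 ratio was 1.42 in libraries 1 to 12, and in libraries 13 to 16 it averaged 0.0170 CPM in the ARG1- pair, which held 2 counts in all, and 7.29 CPM in the ARG1+ pair. Plxnd1 had a log2 ratio of 5.46 in libraries 1 to 12 and, in libraries 13 to 16, 0 counts in the ARG1- pair and a mean of 1.16 CPM in the ARG1+ pair. With a term for these libraries in the fit, Nrp2, Plxnc1 (adjusted p = 0.0408) and Plxnd1 were called. The 10 border macrophage markers, of which 7 were tested and 1 (Stab1) was higher, summed to 307 to 516 CPM in ARG1- and 405 to 842 CPM in ARG1+ libraries, mostly Mrc1 and Stab1. Some of these markers were near 0: Cd209f had 0 counts in all libraries, Lyve1 was at most 0.238 CPM and Cd163 at most 0.715 CPM. Others had higher means in ARG1+ than in ARG1- libraries without passing the test. Siglec1 had 4.23 CPM in ARG1- and 13.998 CPM in ARG1+ libraries (adjusted p = 0.225). Ms4a7 had 0.353 and 2.73 CPM (0.176), and Pf4 had 0.564 and 1.03 CPM (0.687). Cbr2 (3.40 and 1.99 CPM) and F13a1 (2.79 and 1.93 CPM) went the other way. Of 10 endothelial markers 4 were tested and 0 called (2 at an unadjusted p under 0.05), and their sum, mostly Ramp2 and Pecam1, was 116 to 153 CPM in ARG1- and 101 to 163 CPM in ARG1+ libraries. Cldn5 and Emcn had 0 counts in all libraries, while Tie1 reached 8.38 CPM in an ARG1- library. Means in ARG1- and ARG1+ libraries were 93.7 and 68.6 CPM for Ramp2 and 36.5 and 53.1 CPM for Pecam1. For Cdh5 they were 1.22 and 0.751 CPM, and for Slco1a4 0.951 and 0.280 CPM. The part of border macrophage RNA, of endothelial RNA and of the detained-intron genes in the changes of Nrp2, Plxnc1 and Plxnd1 was not tested. Nor was that of the number of tested genes with a count, which was mostly higher in ARG1+ libraries.

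Sexes were compared in the same way. Over all genes, 0% passed for a difference in the ARG1 effect between males and females (1576 genes at an unadjusted p under 0.05), and by edgeR and by DESeq2 0 of the 8 genes did. Unadjusted, 2 of them were under 0.05. For Plxnb2 the log2 change was -0.29 in females and 0.57 in males, a difference of 0.86 (95% interval 0.13 to 1.59; unadjusted p = 0.0253; edgeR's adjusted p = 0.491). For Plxnc1 it was 6.08 in females and 2.04 in males, a difference of -4.04 (95% interval -7.28 to -0.79; unadjusted p = 0.0192; edgeR's adjusted p = 0.486). Both differences failed the correction. Between males and females, 0.0946% of all genes were called in ARG1- and 0.0355% in ARG1+ microglia, and 0 of the 8 genes in either by edgeR. At an unadjusted p under 0.05, 1 gene passed in ARG1- microglia, Plxnc1, which was 4.49 higher in males on the log2 scale (edgeR's adjusted p = 0.306) and was called by DESeq2 (adjusted p = 0.00361). Most of its ARG1- counts came from 1 library. ARG1- male 5 had 123, males 6 and 14 had 7 and 24, and females 1, 2 and 13 had 1, 0 and 8. The log2 change of 6.08 in females rests on those few female counts. In ARG1+ microglia the unadjusted count was 0, and DESeq2 called 0.

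The 9 genes belong to families with 31 listed members, of which 19 were tested. Of these 4 were higher in ARG1+ microglia, 0 were lower by edgeR (also 0 at an unadjusted p under 0.05) or by DESeq2, and 5 of the 19 (Plxnc1, Plxnd1, Plxna3, Plxnb1 and Sema3b) passed the filter only through ARG1+ libraries. With those 5 included, the median log2 change was 0.61, against 0.06 over all genes tested. The filter favours a rise in those 5, whose log2 changes ran from 2.97 (Plxnb1) to 7.84 (Sema3b). They lift this median, which is given as a description. Most of the 19 have 5849 or more bases of summed exons. Among all tested genes of that length the median was 0.29, and 12.7% were called higher. The 22 other genes of the families gave 11 tested and 1 higher. That gene was Plxna4, a receptor that pairs with neuropilins, at 35.6 to 56.2 CPM in ARG1- and 56.6 to 83.7 CPM in ARG1+ libraries. The populations nearly met without overlapping, and the log2 change was 0.66 ± 0.14 (SE; adjusted p = 0.00880), a call lost in the libraries numbered 1 to 12 (0.112). Over all genes, 3.48% had every ARG1+ library above every ARG1- library and 6.56% had every one below. By that count 4 of the 19 family genes lay above (Nrp2, Plxnd1, Plxna3 and Plxna4) and 0 below, where Plxnd1 and Plxna3 are among the genes that the filter kept only because they were high in ARG1+ libraries.

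Plxna3, also a neuropilin partner, was scarce, with means of 0.351 ± 0.596 and 3.64 ± 1.41 CPM (SD, n = 6 each), no overlap between the populations and a log2 change of 3.49 ± 1.26 (SE; adjusted p = 0.0814). Plxnb1, the receptor of Sema4D, was at 0 to 1.26 CPM in ARG1- and 0 to 5.01 CPM in ARG1+ libraries (log2 change 2.97, adjusted p = 0.194). Plxnb3 had means of 21.8 ± 12.1 and 19.9 ± 6.68 CPM (SD, n = 6 each; adjusted p = 0.837). None of these passed edgeR's test over all 12 libraries. Plxna3 was called by DESeq2 (adjusted p = 0.0132) and by edgeR without ARG1- female 1 (0.0212).

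Of 20 semaphorins, 9 were tested and 0 called by edgeR, with 4 at an unadjusted p under 0.05, and DESeq2 called 1, Sema4d. Among the class 4 members, Sema4c had means of 70.6 ± 17.3 and 87.8 ± 28.5 CPM (adjusted p = 0.462). Sema4a lay at 9.98 to 40.1 CPM in ARG1- and 28.8 to 55.4 CPM in ARG1+ libraries (0.170) and Sema4g had means of 4.41 ± 2.17 and 6.09 ± 1.99 CPM (0.467). All of these overlapped between the populations. In class 6, a group of membrane semaphorins that signal through A-type plexins, Sema6b had means of 3.39 ± 3.73 and 4.72 ± 1.64 CPM (0.778), Sema6c of 3.30 ± 1.70 and 6.08 ± 1.59 CPM (0.153) and Sema6d of 19.8 ± 8.64 and 14.4 ± 6.77 CPM (0.492). Of the secreted class 3 ligands of the neuropilins, only Sema3b passed the filter. It had 0 counts in the 6 ARG1- libraries and 167 counts spread over 3 of the 6 ARG1+ libraries (adjusted p = 0.0687). Sema3b was called when sex was left out of edgeR's fit (0.0473). Sema7a, the ligand of Plxnc1, was at most 0.0296 CPM, and Sema3e, that of Plxnd1, had 0 counts in all libraries.

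**Figure D2:**
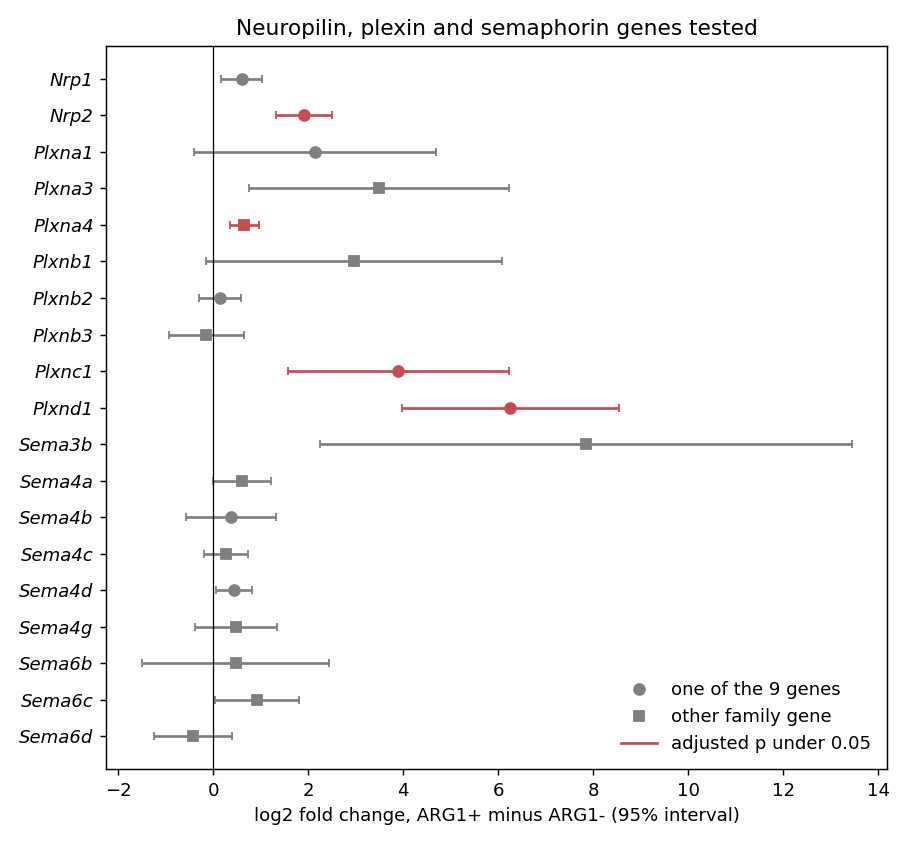
Fitted log2 fold change (ARG1+ minus ARG1-) with its 95% interval for the 19 family genes tested over 12 libraries, with circles for the genes chosen here, squares for the others and red for an adjusted p under 0.05. Nrp2, Plxna4, Plxnc1 and Plxnd1 are red and lie above 0, and the scarce genes, such as Sema3b with 0 counts in ARG1- libraries, have wide intervals.

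Of 25 co-receptors and other ligands of the pathway, 15 were tested, 0 were higher (2 at an unadjusted p under 0.05) and 2 were lower. The 2 lower genes were 13.3% of those tested, against 9.42% over all genes. Tyrobp, the DAP12 adaptor, fell from a mean of 1317 ± 137 to 661 ± 160 CPM, without overlap (log2 change -0.997 ± 0.154, adjusted p = 0.00153). Its partner Trem2 fell from a mean of 1634 ± 119 to 1244 ± 161 CPM (log2 change -0.40 ± 0.09, adjusted p = 0.0109), with overlap, and lost the call in libraries 1 to 12 and against a 1.2-fold change. By DESeq2 2 genes were higher, the VEGF receptor Kdr and the TGF-beta receptor Tgfbr2, which edgeR placed at adjusted p values of 0.305 and 0.0838.

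Downstream, the list of effectors of plexins and neuropilins held calls in both directions. Of 39 genes 36 were tested, 2 were higher and 6 lower. These were 5.56% and 16.7% of those tested, against 6.44% and 9.42% over all genes. The median log2 change was 0.03, against 0.06 over all genes. Arhgef12, a guanine nucleotide exchange factor that binds B-type plexins, rose from a mean of 5.48 ± 2.98 to 16.8 ± 5.92 CPM without overlap (log2 change 1.61 ± 0.49, adjusted p = 0.0423). That call was fragile: it held in 3 of the 12 fits that left out a library and was lost in libraries 1 to 12, against a 1.2-fold change and with the trend on length and GC content removed. Gsk3b, a kinase of the semaphorin pathway, rose from 30.8 ± 6.33 to 51.9 ± 9.06 CPM (log2 change 0.77 ± 0.17, adjusted p = 0.00915). Among the genes that fell, Rap1a, a substrate of the plexin GAP domain, fell by 0.76 on the log2 scale (adjusted p = 0.0412) and Rras2, an R-Ras relative, by 0.71 (0.0269). With 1 library left out, Rap1a stayed called in 3 of 12 fits and Rras2 in 6, and of the 11 other settings Rap1a held in 6 and Rras2 in 8. Cfl1, the actin-severing protein cofilin, fell by 0.67 from a mean of 625 ± 69.4 to 393 ± 77.6 CPM (0.00493), and Pak1, a kinase activated by Rac, fell by 0.57 (0.00544). Gsk3b, Cfl1 and Pak1 were called in all 12 fits that left out a library and lost the call only in libraries 1 to 12 among the 11 settings. The count of effectors called higher was 6 by DESeq2 and 1 once the trend of change on gene length was removed. The other 2 that fell were Gipc1, which binds the tail of Nrp1, and Rhoa, with log2 changes of -0.43 and -0.38 (called in 5 and 11 of the 12 fits that left out a library), and they were singled out after their values were seen.

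**Figure D3:**
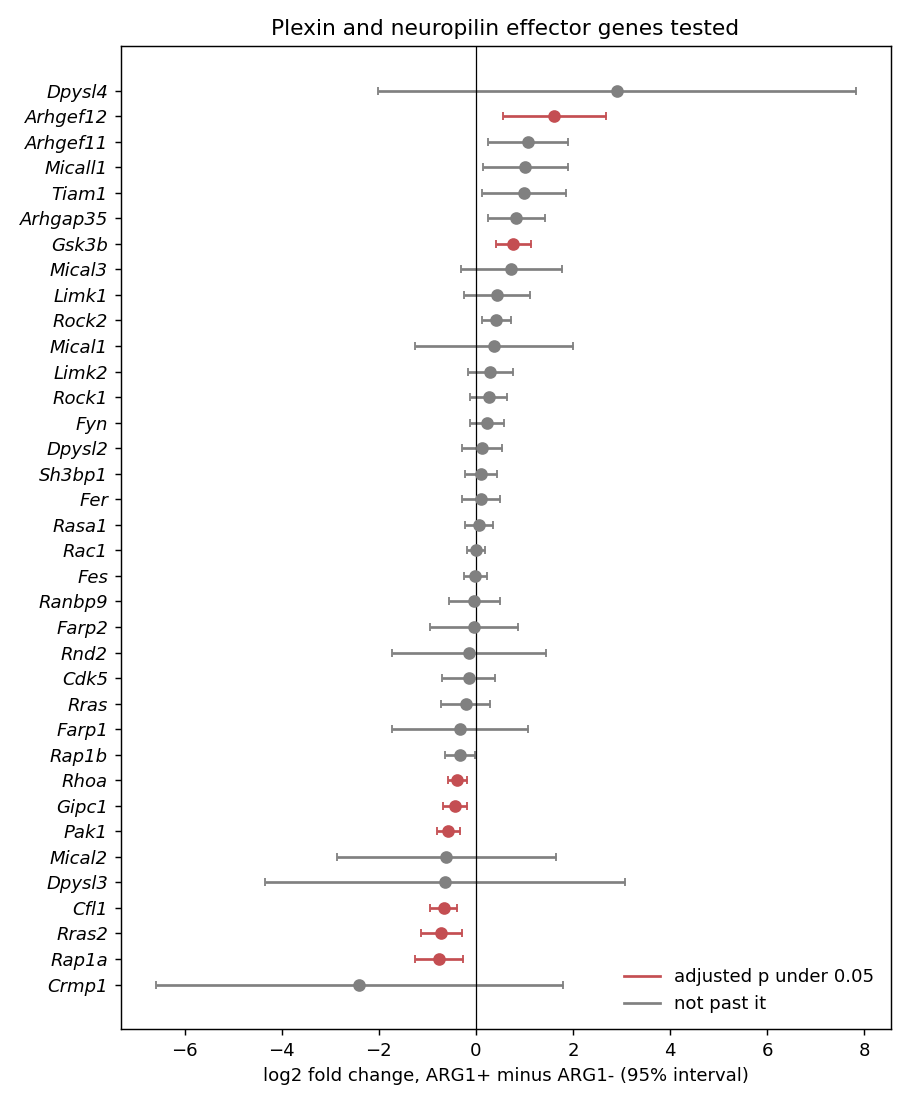
Fitted log2 fold change (ARG1+ minus ARG1-) with its 95% interval for the 36 effector genes tested over 12 libraries, ordered by size, with red for an adjusted p under 0.05. The 2 red genes on the right are Arhgef12 and Gsk3b, and the 6 red genes on the left have narrow intervals between -1.26 and -0.18.

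Most other guidance genes had too few counts to be tested. Of 40 slits, netrins, ephrins, RGMs and their receptors, 13 were tested, 2 were higher and 0 were lower by edgeR or by DESeq2 (1 at an unadjusted p under 0.05). The 2 higher genes were 15.4% of those tested, against 6.44% over all genes. Efna1, an ephrin ligand, had 0 counts in all ARG1- libraries and 221 counts over 5 of the 6 ARG1+ libraries, which is at least 12.95-fold higher against a floor of 3 counts in each ARG1- library (adjusted p = 0.0165). It too passed the filter only through ARG1+ libraries. Rgmb, a ligand of neogenin, rose from a mean of 121 ± 14.3 to 157 ± 11.2 CPM (log2 change 0.37 ± 0.10, adjusted p = 0.0214). It lost the call without ARG1- female 13, in libraries 1 to 12, against a 1.2-fold change and with the trend on length and GC content removed.

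Gene length moved with the comparison. When the tested genes were split by summed exon length into 4 classes of nearly equal size, 3.41% of the shortest and 12.7% of the longest class were called higher, and 13.8% and 2.84% lower. Median log2 changes ran from -0.12 in the shortest to 0.29 in the longest class. All 9 genes are long: 8 of them, all but Sema4b, lie in the longest class, which begins at 5849 bases. After removal of each library's trend on length and GC content, the log2 changes were 1.67 for Nrp2 (adjusted p = 0.00103), 3.75 for Plxnc1 (0.0368) and 6.11 for Plxnd1 (0.00269), so all 3 stayed past the threshold. That of Nrp1 was 0.40 (0.188), of Sema4d 0.32 (0.0728) and of Plxna4 0.40 (0.0301).

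**Figure D4:**
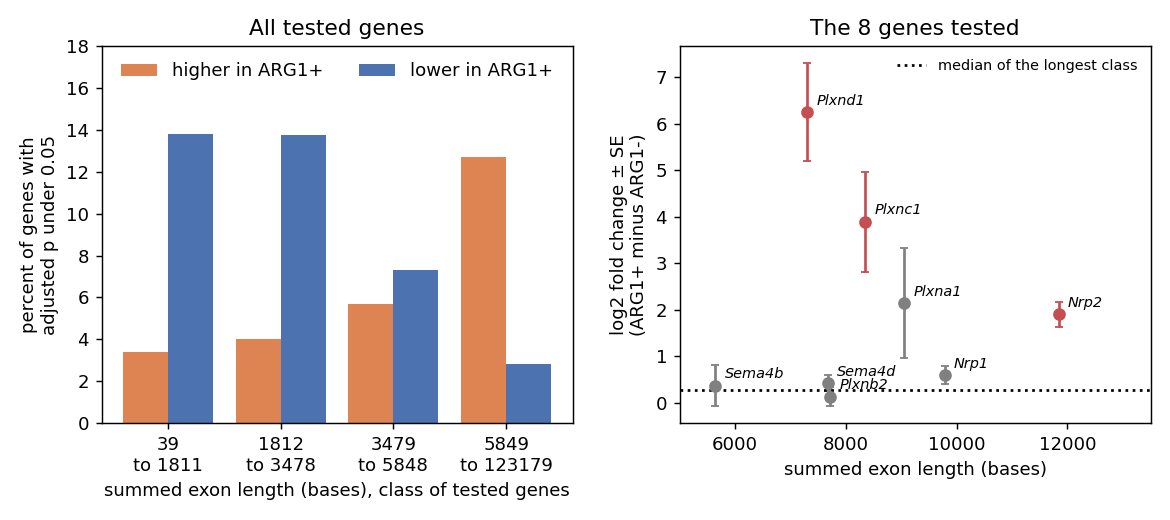
Left, percent of tested genes called higher (orange) or lower (blue) in ARG1+ microglia in each of the 4 classes of summed exon length; right, log2 fold change ± SE against exon length for the 8 genes tested, red for an adjusted p under 0.05, with the median of the longest class dotted. The longest class has 12.7% called higher. Nrp2, Plxnc1 and Plxnd1 lie far above its median of 0.29. Plxna1, which was not called, also lies far above it (2.15, edgeR's adjusted p = 0.252). Nrp1, Sema4d, Plxnb2 and Sema4b lie near it, and Sema4b is shorter than the genes of that class.

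The expression profiles most like those of the called genes were sought over the 12 libraries, as the smallest mean absolute difference of centred log2 CPM among the 11632 to 11633 other genes that had 10 or more counts in each library. For Nrp2 these were Tbc1d16, which encodes a Rab GTPase-activating protein, and Csf1, a growth factor of macrophages, each 0.308 away on the log2 scale. The mean of Csf1 was 16.6 CPM in ARG1- and 58.0 CPM in ARG1+ microglia. For Plxnd1 they were Gm43481 (0.701) and Spp1, the gene of osteopontin (0.709), whose mean was 36.2 CPM in ARG1- and 213 CPM in ARG1+ microglia. For Plxnc1 they were A530041M06Rik and Trip6, both 1.06 away, so the likeness was looser there. The search spanned both populations and started from genes called higher. A rise of the similar genes in ARG1+ libraries therefore follows from the search. The log2 values used a prior count of 2, which shrinks the change of genes with few counts, such as Plxnd1.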

How the data were processed

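The 12 libraries were made, per the study's methods, with the SMART-Seq v4 and Nextera XT kits, which do not keep strand. The authors aligned reads to GRCm38 with STAR (2.6.1d) and deposited raw counts per Ensembl gene from featureCounts (1.5.1), with no normalization. The submitters' processing notes also name bcl2fastq 2.20.0 and DESeq2 1.28.1. All 12 columns were matched to samples by name, with 0 unused. Symbols and exon lengths came from GENCODE M21, the authors' annotation release not being given in the sources used here, and 55227 of 55487 identifiers matched. Genes annotated over the 9 averaged at most 2.87 CPM, and reads of opposite strands cannot be told apart.

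Counts were filtered with filterByExpr on the 4 groups (16908 genes kept), normalized by TMM and fitted with edgeR 4.0.16 in R 4.3.3 (glmQLFit, glmQLFTest; ARG1 status and sex; Benjamini-Hochberg, limit 0.05). Standard errors were derived from each log2 change and the square root of its F value. Sex contrasts used the 4 group means. Counts were also compared within groups: the 12 pairs differed by 40.7 to 125 times what sampling noise gives, so each library is 1 replicate. Intervals on counts are exact at 95% and cover counting error only, since reads carry no molecular identifiers. The alternatives were other size factors, no filter or 10 counts in every library, no sex term, a term for libraries 13 to 16, libraries 1 to 12 alone, DESeq2 1.42.0, removal of the length and GC trend (mgcv 1.9.3), thinned counts, glmTreat against 1.2-fold and each library left out. The scripts were tested on simulated data.

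The 9 genes and all lists were chosen with earlier results of these data known. Genes named are the 9, the other tested plexins and semaphorins, up to 6 called genes of largest change in each pathway list, the 2 most similar profiles per called gene, and marker genes.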

Additional observations from a re-analysis of the deposited data

Results flagged for a closer look

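Single libraries stood apart from the other 5 of their population by Dixon's criterion in 3 of the 17 sets of 6 values tried. In 2 of the 3, Plxna2 and Plxnd1, the other 5 values are 0, which meets the criterion by construction, so the usual rate of chance flags, about 1 in 20 sets, does not apply to them. Plxnc1 was at 3.25 CPM (123 counts) in ARG1- male 5 and between 0 and 0.711 CPM in the other ARG1- libraries, and without that library its log2 change was 4.85 (edgeR's adjusted p = 0.00519). Plxna2 was at 0.711 CPM (24 counts) in ARG1+ male 16 and at 0 in the other 5 ARG1+ libraries. Plxnd1 was at 0.0669 CPM (2 counts) in ARG1- male 6, which is under the level of 3 counts, and at 0 in the other 5 ARG1- libraries.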

How the results depend on the processing

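Of the 9 genes, 3 were called higher. That count was 5 by DESeq2 and 1 (Nrp2) in the 8 libraries numbered 1 to 12, and 2 to 4 with 1 library left out. Over the 3 families the count of 4 became 7 by DESeq2 and 1 in libraries 1 to 12, and 3 to 6 with 1 left out. Co-receptors called higher were 1 with at least 10 counts in every library, 2 by DESeq2 and 0 to 1 with 1 left out, and those lower were 1 in libraries 1 to 12 and 1 against a 1.2-fold change (glmTreat). Effectors called higher were 4 with DESeq2 size factors or upper-quartile factors, 5 with at least 10 counts, 6 by DESeq2, 0 in libraries 1 to 12, 1 with the length and GC trend removed, 1 by glmTreat and 1 to 3 with 1 left out. Effectors called lower were 2 without a filter, 0 in libraries 1 to 12, 2 by glmTreat and 2 to 6 with 1 left out. Other guidance genes called higher were 1 with at least 10 counts, in libraries 1 to 12, with the trend removed and by glmTreat, and 1 to 3 with 1 left out, and those lower were 0 to 1. Between the sexes of ARG1- microglia DESeq2 called 1 of the 9 genes. The direction turned for Plxnb2 (-0.019) and Sema6b (-0.064) in libraries 1 to 12, and for Plxnb3 without ARG1- male 6 (0.20) or ARG1+ male 11 (0.01), with log2 changes of -0.31 to 0.20 over the fits that left out 1 library. Fewer samples enter the fit of libraries 1 to 12, and the cause of the other changes was not tested. At 3 counts per library, levels under about 0.1 CPM could not be told from absence. No paired analysis was possible because the groups share no library numbers in the labels.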
